A study of Mus musculus with 12 samples.

Results

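The genes described here bring long-chain fatty acids into the muscle cell and carry them, as carnitine esters, into the mitochondrion. They were chosen by name, with earlier results of these data known: every probe set of the array table whose only gene symbol is Slc27a1, Fabp3, Cd36, Cpt1a, Cpt2, Slc25a20, Mlycd, Slc22a5, Crat or Acsl1. Of these 10 genes, 9 had such a probe set, with 17 probe sets among 22690 on the array. Acsl1 was the symbol of none and was not analysed here. The filter on low signal kept 15 of the 17 probe sets and all 9 genes. The 2 below it, both of Cpt1a, are given by their signals. The samples were quadriceps muscles of C57Bl/6J mice after 4 weeks of treatment, in 4 groups of 3 arrays. Sedentary mice had vehicle (the vehicle group) or 5 mg/kg/day of GW1516 (the GW group), a compound that activates PPARδ, a nuclear receptor. Treadmill-trained mice had vehicle (the exercise group) or the same drug at the same dose (the combination group). The labels name no transgene or deletion, and age and sex are not given in the sources used here. Each array held a pool of RNA from 3 mice, so a group stands for 9 mice, and all p-values measure the spread between pools.

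Long-chain fatty acids cross the plasma membrane with the help of transport proteins such as CD36 and FATP1 and travel through the cytosol bound to fatty acid binding proteins. Once activated to acyl-CoA they cannot pass the inner mitochondrial membrane, so CPT1 on the outer membrane moves the acyl group onto carnitine, a carrier swaps acylcarnitine for free carnitine across the inner membrane, and CPT2 moves the acyl group back onto CoA. CPT1 is held back by malonyl-CoA, which makes it the control point of fatty acid entry. Several of these genes are known targets of PPAR receptors, and muscle relies on the pathway in fasting and in long exercise.

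Signals are MAS5 values on a linear scale, and a fold is the ratio of geometric means. A probe set is called where its Benjamini-Hochberg adjusted p in the limma fit over 13575 probe sets is under 0.05. Array medians ranged from 48.4 to 57.2, and bacterial control probe sets had a 95th percentile of 23.5, which serves as background. The 6 muscle fibre markers Ckm, Acta1, Mb, Myh4, Tnnt3 and Pygm were far above background on all arrays, with a summed signal of 84273 at the lowest. Fat cell markers stood apart in 2 arrays. Their summed signal over 6 of 8 listed genes, of which Lep lay below background on average, was 4793 in combination array 2 and 7305 in combination array 3, against 1759 in combination array 1 and 1795 to 2615 in the other groups. In tissue RNA a change in the share of a cell type and a change in RNA per cell cannot be told apart.

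GW1516 raised 6 of the 9 genes. Averaged over sedentary and trained mice, with 6 arrays against 6, the drug raised 7 of the 15 member probe sets, belonging to Slc27a1, Fabp3, Cpt1a, Slc25a20 (both probe sets), Mlycd and Crat (1 of 2), and lowered 0. Over all probe sets tested, 0.236% were called higher and 0.081% lower in this comparison. The median log2 fold change of the members was 0.24, against -0.0026 over all probe sets tested. Because the members were chosen with earlier results of these data known, these shares describe them and are no independent test. No probe set of Cd36, Cpt2 or Slc22a5 passed. In sedentary mice alone (GW against vehicle) 4 of 15 were called higher, where 0.0737% of all probe sets were, and in 8 all GW arrays lay above all vehicle arrays, where 5.54% of all did. In trained mice alone (combination against exercise) 2 of 15 were, where 0.0958% of all were, and 7 did not overlap, where 7.58% of all did not. The 8 in sedentary mice included 1450883_a_at of Cd36, which was not called. Its lowest GW signal was 338.3 and its highest vehicle signal 337.6.

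**Figure D1:**
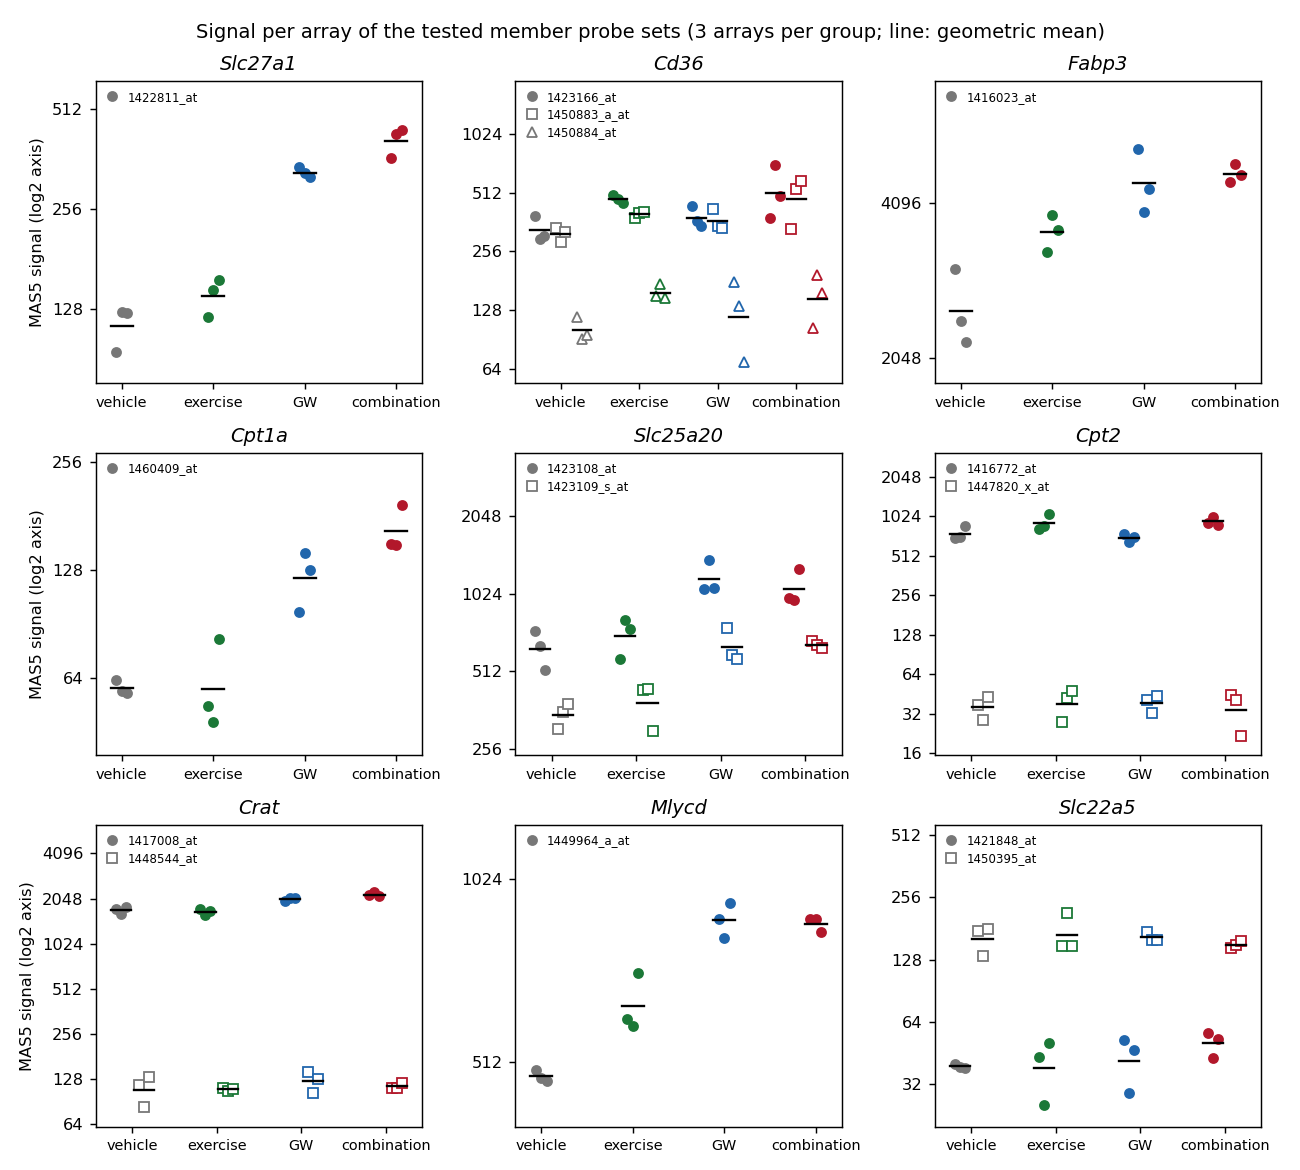
Signal of each tested member probe set on every array, on a log2 axis, by group (3 arrays per group, horizontal line at the geometric mean, one symbol shape per probe set). The GW and combination arrays of Slc27a1, at 319 to 442, lie above all vehicle and exercise arrays, at 95.3 to 157.

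Slc27a1 (Entrez gene 26457) encodes the fatty acid transport protein FATP1. Its single probe set had signals of 95.3, 126 and 125 in vehicle, 122, 146 and 157 in exercise, 342, 329 and 319 in GW and 364, 431 and 442 in the combination. All 6 drug-treated arrays were above all 6 others, as 0.398% of all probe sets were. The mean rose from 115 ± 17.3 to 330 ± 11.4 (SD, n = 3) in sedentary mice, a log2 fold change of 1.53 ± 0.15 (SE, adjusted p = 0.000181), and from 141 ± 17.9 to 412 ± 42.0 in trained mice, 1.55 ± 0.15 (adjusted p = 0.000206). The interaction, the log2 drug effect with training less the one without, was 0.02, with a 95% confidence interval of -0.44 to 0.48. The order of group means was combination, GW, exercise, vehicle. The neighbours combination and GW (log2 0.32, adjusted p = 0.856) did not differ past the threshold, although their arrays did not overlap, and neither did exercise and vehicle (log2 0.30, adjusted p = 0.511). When both combination arrays with high fat cell markers were left out, the value in trained mice was 1.37 (adjusted p = 0.105), with 1 combination array assumed to vary like the other groups.

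Fabp3 (Entrez gene 14077) encodes the fatty acid binding protein of heart and muscle, which carries fatty acids through the cytosol. Its signals were 3048, 2420 and 2195 in vehicle, 3288, 3886 and 3635 in exercise, 5221, 3946 and 4359 in GW and 4506, 4890 and 4653 in the combination. The vehicle arrays were the lowest, the exercise arrays lay above them without overlap, and all drug-treated arrays lay above both. The mean rose with the drug in sedentary mice from 2554 ± 442 to 4508 ± 650, 1.77-fold (log2 0.82 ± 0.12, adjusted p = 0.00779). In trained mice the means were 3603 ± 300 and 4683 ± 194, a log2 fold change of 0.38 ± 0.12 that did not pass (adjusted p = 0.34). Averaged over both, the drug effect was 0.60 ± 0.08 (adjusted p = 0.00366). The call in sedentary mice ended without vehicle array 2 (adjusted p = 0.0653), with only the arrays of both groups in the fit (0.109) and without an intensity trend of the variance (0.201). Without the trend the averaged effect had an adjusted p of 0.128, and without the combination arrays with high fat cell markers one of 0.111, at log2 values of 0.60 and 0.57.

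Cd36 (Entrez gene 12491) encodes a fatty acid translocase of the plasma membrane that muscle fibres share with endothelial and fat cells. No drug comparison passed in any of its 3 probe sets. The averaged drug effects were 0.16 (95% confidence interval -0.12 to 0.44), 0.23 (-0.03 to 0.50) and 0.06 (-0.38 to 0.50) on the log2 scale in the order 1423166_at, 1450883_a_at and 1450884_at. In 1423166_at the signals were 390, 297 and 307 in vehicle, 498, 476 and 451 in exercise, 438, 368 and 344 in GW and 377, 705 and 493 in the combination. The exercise arrays lay above the vehicle arrays in all 3 probe sets, as 8.83% of all probe sets did, and in 1423166_at the combination arrays spread most. The means of this probe set were 331 ± 51.3 in vehicle and 475 ± 23.2 in exercise, a log2 fold change of 0.53 ± 0.19 (adjusted p = 0.348).

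Endothelial and fat cell markers were read beside Cd36. The summed signal of the 10 endothelial markers, all above background on average, was 1629.8 to 1653 in vehicle, 1819.7 to 1955 in exercise, 1380.4 to 1654 in GW, and 1486, 1850.3 and 1829 in combination arrays 1, 2 and 3. In those same 3 combination arrays Cd36 was at 335, 536 and 586 in 1450883_a_at. It was at 377, 705 and 493 in 1423166_at and at 104, 194 and 157 in 1450884_at. Combination array 1 was the lowest of the 3 in each probe set and in the endothelial and fat cell sums. It was also the lowest in the muscle fibre (92882, against 104057 and 97555) and macrophage sums (579, against 1114 and 975). The red blood cell sums were 55.0, 108 and 66.7, over 2 of 4 listed genes, of which Hba-a1 lay below background on average. The slow fibre sums were 566, 541 and 523, of which Atp2a2 alone gave 406, 384 and 430. Against vehicle the log2 fold change of 1450883_a_at was 0.59 (adjusted p = 0.261). It was 0.18 (0.833) with the fat cell marker score, the mean log2 signal of the fat cell markers, in the fit. Without combination array 1 it was 0.84 and passed (adjusted p = 0.01), while 1423166_at (log2 0.84, adjusted p = 0.0537) and 1450884_at (log2 0.78, 0.444) did not. Without both other combination arrays it was 0.09 (0.981). The endothelial markers did not all move alike from vehicle to exercise, so their sum does not speak for each of them. Tek was lower, at 136, 120 and 136 in vehicle and 96.5, 115 and 105 in exercise. Cldn5 was higher, at 97.0, 81.1 and 69.0 in vehicle and 129, 177 and 153 in exercise. The part of cell types in the combination values, and that of endothelial cells in the exercise values, was not tested.

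**Figure D2:**
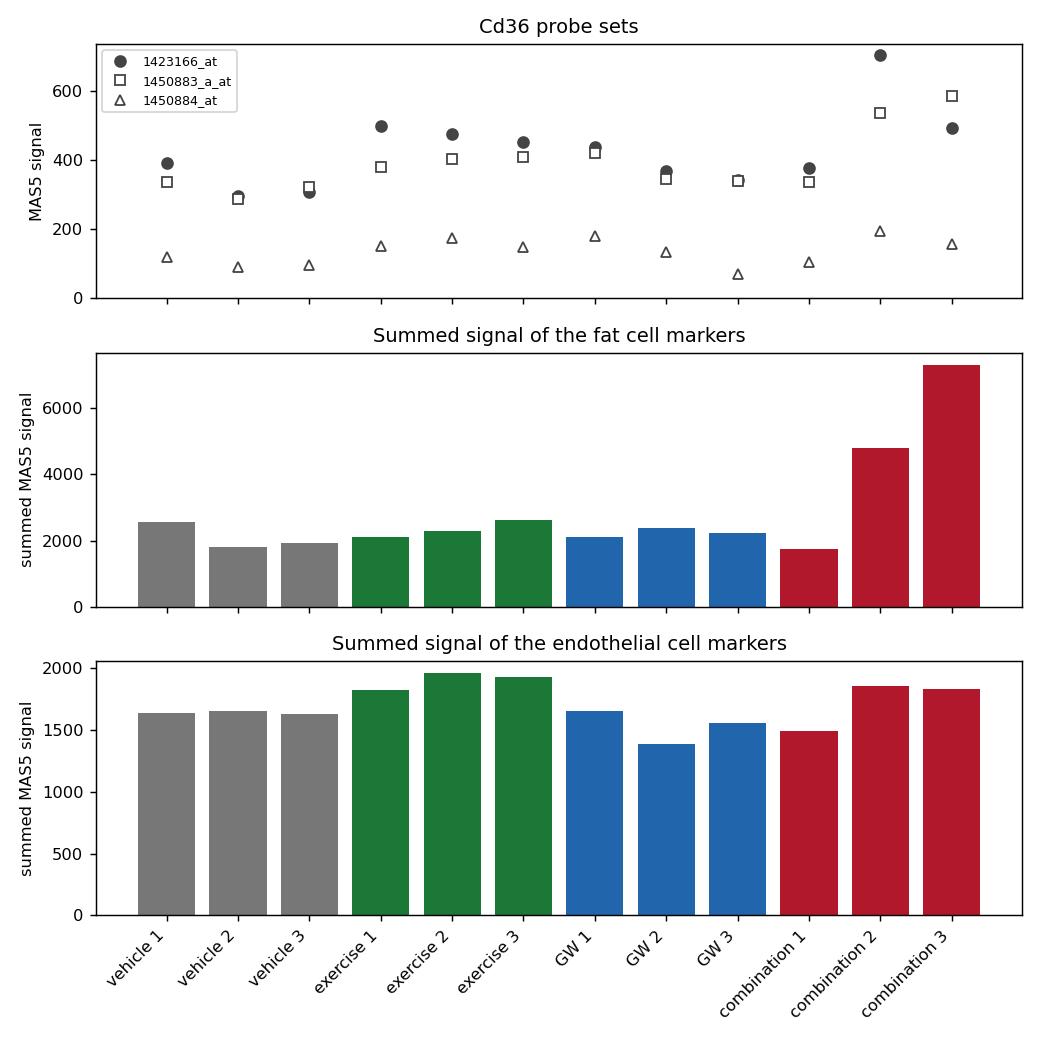
Signal of the 3 Cd36 probe sets (top), and the summed signal of the fat cell markers (middle) and of the endothelial markers (bottom), on each of the 12 arrays; bars start at 0 and are coloured by group. Combination array 1 is below combination arrays 2 and 3 in all panels (1759 for fat cell and 1486 for endothelial markers), while combination arrays 2 and 3 reach 4793 and 7305 for fat cell markers.

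Cpt1a (Entrez gene 12894) encodes the liver form of carnitine palmitoyltransferase 1, the step that loads long-chain acyl groups onto carnitine. Muscle uses mainly the form encoded by Cpt1b, whose probe set here carries several symbols and was not used. In 1460409_at the signals were 63.2, 58.9 and 58.3 in vehicle, 53.5, 48.3 and 82.5 in exercise, 98.0, 143 and 128 in GW and 152, 150.3 and 195 in the combination. Each group given the drug lay above both groups without it, and the combination arrays lay above the GW arrays. In trained mice the mean rose from 61.5 ± 18.4 to 166 ± 25.3, 2.75-fold (log2 1.46 ± 0.23, adjusted p = 0.0169). In sedentary mice the means were 60.1 ± 2.69 and 123 ± 23.0 (log2 1.02 ± 0.23, adjusted p = 0.28), and averaged over both the effect was 1.24 ± 0.16 (adjusted p = 0.0023). The difference between the drug effects, 0.44 with an interval of -0.26 to 1.14, did not pass (adjusted p = 0.803). Combination arrays 1, 2 and 3 had fat cell marker sums of 1759, 4793 and 7305 and Cpt1a signals of 152, 150.3 and 195. With the fat cell marker score in the fit the effect in trained mice was 1.28 and lost its call (adjusted p = 0.149). Without combination arrays 2 and 3 it was 1.34 (adjusted p = 0.344).

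The Cpt1a call in trained mice also ended without exercise array 1 (adjusted p = 0.0704) or 2 (0.0866), without combination array 2 (0.0739) or 3 (0.11), and without a variance trend (0.0834). The averaged effect of Cpt1a kept its call in all of these and lost it only when combination arrays 2 and 3 were both left out (log2 1.18, adjusted p = 0.0847). The other 2 probe sets of Cpt1a, 1434866_x_at and 1438156_x_at, had signals of 1.5 to 32.2 and 2.2 to 18.7 over the 12 arrays. They were above background on 1 and 0 arrays, so they give no view of the gene. In probe set names, the suffix _x marks probes that may also bind other sequences, and _s and _a mark probes shared by several transcripts.

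Slc25a20 (Entrez gene 57279) encodes the carnitine-acylcarnitine translocase of the inner mitochondrial membrane. Its promoter and that of Cd36 are shown as the pair of member promoters with a sequence near the PPAR response element, one from a gene called with the drug and one from a gene that was not. The windows, from RefSeq on build GRCm38.p6, run from 250 bases before the annotated start to 50 after. The Slc25a20 window is chr9:108661886-108662185 on the plus strand and the Cd36 window chr5:17835847-17836146 on the minus strand, each printed 5′ to 3′ along the gene. Capitals mark the match to the DR1 element, which PPAR and its partner RXR bind and which repeats AGGTCA with 1 free base between, with up to 2 of 12 fixed letters changed.
Slc25a20: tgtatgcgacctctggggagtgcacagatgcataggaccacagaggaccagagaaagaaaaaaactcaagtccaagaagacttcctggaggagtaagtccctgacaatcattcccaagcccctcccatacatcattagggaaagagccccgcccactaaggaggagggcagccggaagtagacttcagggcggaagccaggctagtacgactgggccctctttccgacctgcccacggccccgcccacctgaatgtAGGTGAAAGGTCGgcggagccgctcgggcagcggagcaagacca
Cd36: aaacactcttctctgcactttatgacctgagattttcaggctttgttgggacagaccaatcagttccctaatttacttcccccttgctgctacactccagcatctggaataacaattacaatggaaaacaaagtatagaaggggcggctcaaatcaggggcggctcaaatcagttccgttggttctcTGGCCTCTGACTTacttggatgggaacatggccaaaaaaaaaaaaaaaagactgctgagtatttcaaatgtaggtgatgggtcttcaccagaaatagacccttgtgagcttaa
The Slc25a20 match, AGGTGAAAGGTCG, spans bases 257 to 269 of the window and lies on the strand of the gene, and the Cd36 match spans bases 188 to 200 and reads on the opposite strand. Of all 32851 windows of 300 bases, 3.86% held such a match on either strand. None of the 12 windows, which belong to 9 of the 10 listed genes with Acsl1 among them, held a match with up to 1 letter changed, as 0.554% of all windows did. The setting with 2 letters was chosen after the stricter searches had found nothing, and a match is a description of the letters alone. The table held no window for Crat.

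Both probe sets of Slc25a20 were higher in all 6 drug-treated arrays than in all 6 others. In 1423109_s_at the signals were 305, 356 and 383 in vehicle, 433, 438 and 301 in exercise, 756, 592 and 571 in GW and 669, 646 and 630 in the combination. In 1423108_at they were 734, 642 and 519 in vehicle, 570.5, 813 and 747 in exercise, 1068, 1389 and 1079 in GW and 983, 971 and 1275 in the combination. Vehicle and exercise overlapped, as did GW and combination, in both probe sets. The averaged drug effect was 0.81 ± 0.11 (adjusted p = 0.0023) in the first and 0.75 ± 0.12 (adjusted p = 0.00898) in the second. In sedentary mice 1423109_s_at rose 1.83-fold (adjusted p = 0.0459), while 1423108_at, with the larger fold of 1.87, did not pass (0.0571). In trained mice neither passed (log2 0.75, adjusted p = 0.0771, and log2 0.60, adjusted p = 0.221).

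The sedentary call on 1423109_s_at sits at the threshold. It ended when any 1 array except exercise array 3 was left out, with adjusted p-values of 0.0515 to 0.205, while 1423108_at gained a call without vehicle array 1 (0.0338) or exercise array 1 (0.0306) and under 5 other settings (0.0222 to 0.0496). In trained mice 1423109_s_at gained one without GW array 1 (0.0428) or with array weights (0.0434). The averaged calls ended without a variance trend (0.0575 and 0.141 in the same order) and without combination arrays 2 and 3 (0.0561 and 0.131), and that on 1423108_at also with the fat cell marker score in the fit (0.0526). The log2 values without those arrays were 0.84 and 0.69, and that of 1423108_at with the score was 0.68.

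Cpt2 (Entrez gene 12896) encodes the enzyme that returns the acyl group to CoA inside the mitochondrion. In 1416772_at the signals were 697, 711 and 857 in vehicle, 816, 867 and 1069 in exercise, 745, 653 and 716 in GW and 917, 1017 and 872 in the combination. Both trained groups were above the GW group, and GW overlapped vehicle. The averaged drug effect was -0.03 on the log2 scale, with an interval of -0.21 to 0.15, and the averaged training effect was 0.34 (0.16 to 0.52, adjusted p = 0.288). Its other probe set, 1447820_x_at, had signals of 21.6 to 47.5 and an averaged drug effect of -0.03 with a wide interval of -0.61 to 0.56.

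Mlycd (Entrez gene 56690) encodes malonyl-CoA decarboxylase, which removes the malonyl-CoA that restrains CPT1. Its signals were 498, 482 and 478 in vehicle, 604, 587 and 719 in exercise, 881, 818 and 935 in GW and 880.1, 879 and 837 in the combination. The groups formed 3 steps without overlap, vehicle lowest, then exercise, then both drug groups together. The mean rose with the drug in sedentary mice from 486 ± 10.9 to 878 ± 58.7, 1.80-fold (log2 0.85 ± 0.10, adjusted p = 0.000911), in every alternative processing run. In trained mice the means were 637 ± 71.8 and 865 ± 24.9 (log2 0.45 ± 0.10, adjusted p = 0.11). Averaged over both the effect was 0.65 ± 0.07 (adjusted p = 0.000348).

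Crat (Entrez gene 12908) encodes carnitine acetyltransferase, which moves acetyl groups between CoA and carnitine. In 1417008_at the signals were 1744, 1625 and 1806 in vehicle, 1756, 1597 and 1682 in exercise, 1985, 2064 and 2075 in GW and 2165, 2252 and 2114 in the combination. The drug groups lay above the others without overlap, in a narrow range. The averaged drug effect was small, 1.24-fold (log2 0.31 ± 0.05, adjusted p = 0.0194). That call ended without vehicle array 2 (adjusted p = 0.0718), exercise array 2 (0.061), combination array 2 (0.0815) or GW array 3 (0.0658), without a variance trend (0.233) and with the fat cell marker score in the fit (0.0768) or without combination arrays 2 and 3 (0.216). The log2 value was 0.29 to 0.31 in all of these. In the other probe set, 1448544_at, with signals of 83.5 to 143, the averaged effect was 0.13 (-0.17 to 0.42).

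Slc22a5 (Entrez gene 20520) encodes OCTN2, which takes up carnitine itself into the cell. In 1450395_at the signals were 176, 133 and 181 in vehicle, 149, 215 and 148 in exercise, 175, 159.7 and 159.5 in GW and 146, 149.97 and 157 in the combination, with overlap between all groups but GW and combination. The averaged drug effect was -0.06 (-0.33 to 0.20). In 1421848_at, with signals of 25.5 to 56.4, it was 0.24 (-0.28 to 0.77).

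**Figure D3:**
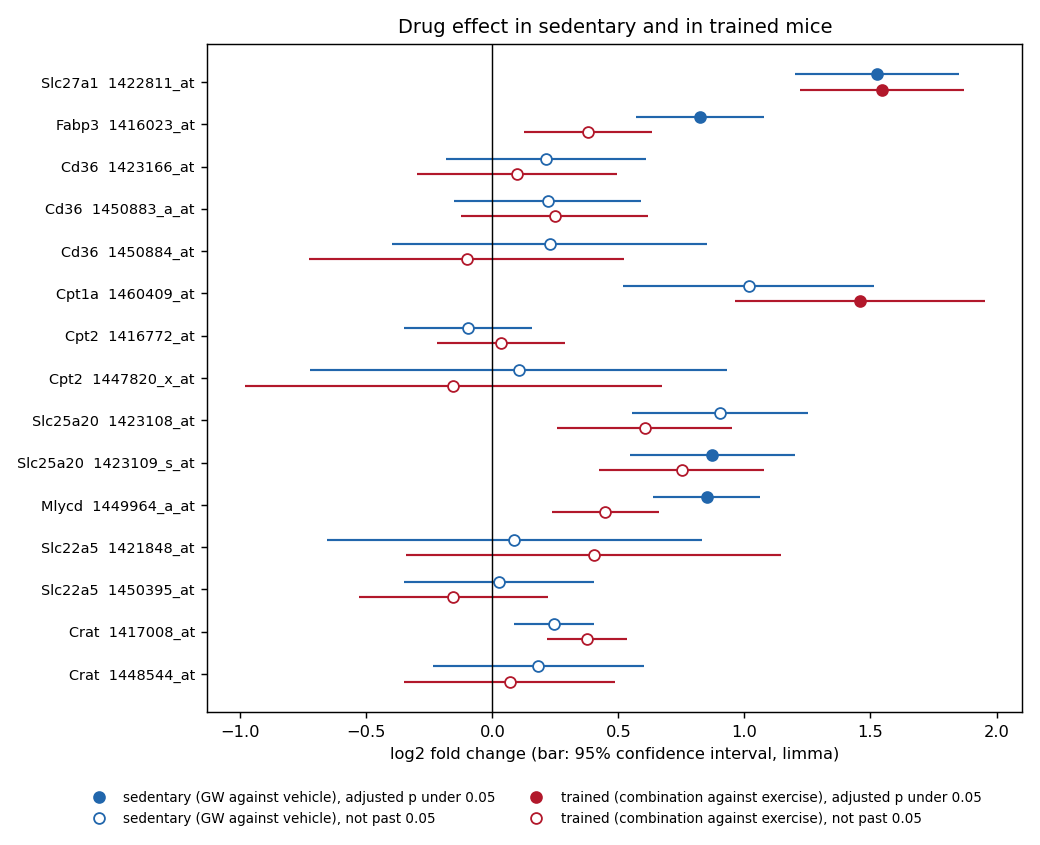
Log2 fold change by the drug in sedentary (blue) and in trained mice (red) for the 15 tested member probe sets, with 95% confidence intervals; filled points have an adjusted p under 0.05. Slc27a1 is at 1.53 and 1.55, while the intervals of Cd36, Cpt2 and Slc22a5 include 0.

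Probe sets of 1 gene were set against each other within arrays, which gave 7 pairs in 5 genes. The difference between the averaged drug effects of a pair was largest in size for Slc22a5, at 0.31, and smallest for Cpt2, at -0.0047. The gap between the Crat probe sets was 0.18. None passed the two-sided exact permutation test of the drug labels within sedentary and within trained arrays, whose smallest possible p is 0.005 (exact p from 0.135 to 0.965, adjusted p of at least 0.882 over the 7 pairs). That does not show that the probe sets of a gene moved alike.

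No member passed with training. In exercise against vehicle 0 of 15 member probe sets were called, where 0.0147% of all were called in either direction. At an unadjusted p under 0.05, 5 were higher and 0 lower, where 5.69% of all were higher, in Fabp3, Cd36 (2 probe sets), Cpt2 and Mlycd. The log2 fold change of Fabp3 was 0.51 ± 0.12 (adjusted p = 0.219) and that of Mlycd 0.38 ± 0.10 (0.247). Under the drug (combination against GW) the same genes had 0.06 ± 0.12 and -0.02 ± 0.10. Cpt2 had 0.28 ± 0.12 without and 0.41 ± 0.12 with the drug in 1416772_at, and Cpt1a had -0.01 ± 0.23 and 0.43 ± 0.23, none of them past the threshold. In combination against GW 0 of 15 were called higher, where 0% of all were. The combination arrays lay above the GW arrays in 4 (Slc27a1, Cpt1a, 1416772_at of Cpt2 and 1417008_at of Crat), where 5.13% of all did, and below them in 1 of Slc22a5, where 5.38% did. For Cd36 the averaged training effects of 0.47, 0.35 and 0.47, in the order of probe sets given above, stood beside averaged drug effects of 0.16, 0.23 and 0.06, and the difference between drug and training was not tested. Both averages include the combination arrays with high fat cell markers. Over the alternative processing runs these training effects ran from 0.26 to 0.58, 0.11 to 0.48 and 0.22 to 0.65. The drug effects ran from -0.06 to 0.26, -0.01 to 0.36 and -0.18 to 0.25. In the averaged training effect 0 of 15 were called, where 0.0147% of all were called higher, and 7 were higher at an unadjusted p under 0.05, as 4.80% of all probe sets were. The muscle fibre marker sum was 86850.4 to 88895 in vehicle and 103384 to 107320.4 in exercise without overlap, and 84273 to 106268 in GW and 92882 to 104057 in the combination. Its part in the training values was not tested. With array weights in the fit, Fabp3 passed in exercise against vehicle (log2 0.55, adjusted p = 0.0442).

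**Figure D4:**
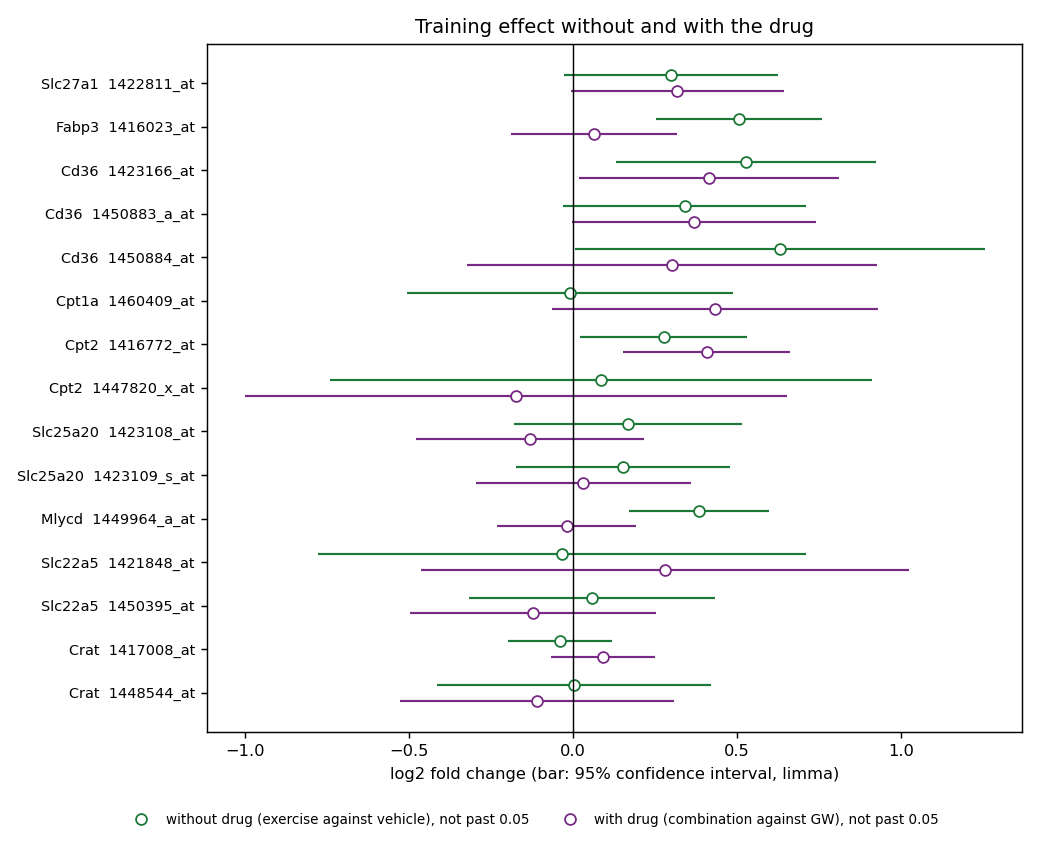
Log2 fold change by training without the drug (green) and with it (purple) for the 15 tested member probe sets, with 95% confidence intervals; open points did not pass the threshold. Fabp3 is at 0.51 without and 0.06 with the drug, and Mlycd at 0.38 and -0.02.

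The drug and training together against untreated mice gave 5 called probe sets of 15, all higher, where 0.147% of all were. In 9 the groups did not overlap and the combination was higher, where 7.94% of all probe sets were. The called ones were Slc27a1, Fabp3, Cpt1a, 1423109_s_at of Slc25a20 and Mlycd. Slc27a1 rose 3.60-fold (log2 1.85, adjusted p = 1.63e-05), Cpt1a 2.73-fold (log2 1.45, 0.0181), Fabp3 1.85-fold (log2 0.89, 0.00325), Slc25a20 1.87-fold (log2 0.90, 0.0257) and Mlycd 1.78-fold (log2 0.83, 0.00104). This comparison shares its vehicle arrays with GW against vehicle and its combination arrays with the comparison in trained mice. The Cpt1a call ended without vehicle array 1 (adjusted p = 0.0504) or 2 (0.102) or combination array 2 (0.086) or 3 (0.11). The Slc25a20 call ended without vehicle array 1 (0.117) or 2 (0.108) or combination array 1 (0.0503), 2 (0.138) or 3 (0.0931). With the fat cell marker score in the fit, Slc27a1 and Mlycd kept their calls and Fabp3 (log2 0.79, adjusted p = 0.0801), Cpt1a (1.25, 0.188) and Slc25a20 (1.04, 0.0631) lost theirs. Without combination arrays 2 and 3 only Slc27a1 kept its call, and Mlycd had an adjusted p of 0.0684.

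No interaction passed: 0 of 15 member probe sets and 0 of all 13575 were called (0%), and 2 members had a negative interaction with an unadjusted p under 0.05, as 3.62% of all probe sets had. These were Mlycd, whose drug effect was lower in trained mice by 0.40 ± 0.14 (interaction -0.40, interval -0.70 to -0.10, adjusted p = 0.707), and Fabp3 (-0.44 ± 0.17, -0.80 to -0.08, adjusted p = 0.718). In both genes the exercise arrays were above the vehicle arrays and the combination arrays overlapped the GW arrays.

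Of 41 other genes of fatty acid uptake, activation and carnitine use and of their regulators, 36 had a probe set with 1 symbol and 23 were tested, with 41 probe sets. Fabp4, also a fat cell marker, is among those listed. The averaged drug effect was called higher in 1 of these and lower in 0, where 0.236% of all probe sets tested were higher and 0.081% lower. The median was 0.17 on the log2 scale, against -0.0026 over all probe sets tested. The called probe set was 1422432_at of Dbi, the acyl-CoA binding protein that holds activated fatty acids in the cytosol. Its averaged drug effect was 0.76 ± 0.11 (adjusted p = 0.00676). It was also the only one called against vehicle in the combination (log2 0.98, adjusted p = 0.0201), and 0 were called in the other comparisons. At an unadjusted p under 0.05, 12 of the 41 probe sets were higher and 0 lower in the averaged drug effect, where 4.32% of all probe sets tested were higher.

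The tested probe sets whose pattern over the 12 arrays was most like that of Slc27a1 were those of Fbp2, Acadl and Cpt1a. Likeness is the mean absolute difference of log2 signals after each probe set was centred on its own mean, and it was 0.17, 0.22 and 0.22, against a mean absolute deviation of 0.77 for Slc27a1 itself. Fbp2 encodes the muscle fructose bisphosphatase and Acadl the long-chain acyl-CoA dehydrogenase. Fbp2 had signals of 545, 741 and 611 in vehicle and 1288, 1541 and 1528 in GW, and Acadl 1196, 1117 and 1043 in vehicle and 2829, 2999 and 2651 in GW. Neither gene overlapped between these groups, where 5.54% of all probe sets tested were higher without overlap. Both were picked for likeness to Slc27a1 over the same arrays, so this separation was largely set by the choice. Most like Fabp3 were 1420657_at of Ucp3, an uncoupling protein (0.13), Mlycd (0.13) and 1428146_s_at of the thiolase Acaa2 (0.14). The mean absolute deviation of Fabp3 itself was 0.31, smaller than that of Slc27a1. Most like 1423108_at of Slc25a20 were Galc, a lysosomal galactosylceramidase (0.16), Acaa2 (0.18) and Dbi (0.18). The mean absolute deviation of 1423108_at itself was 0.38. Relative to these deviations, the matches to Fabp3 and Slc25a20 were looser than those to Slc27a1. Galc itself did not pass in the averaged drug effect (log2 0.59, adjusted p = 0.414).

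**Figure D5:**
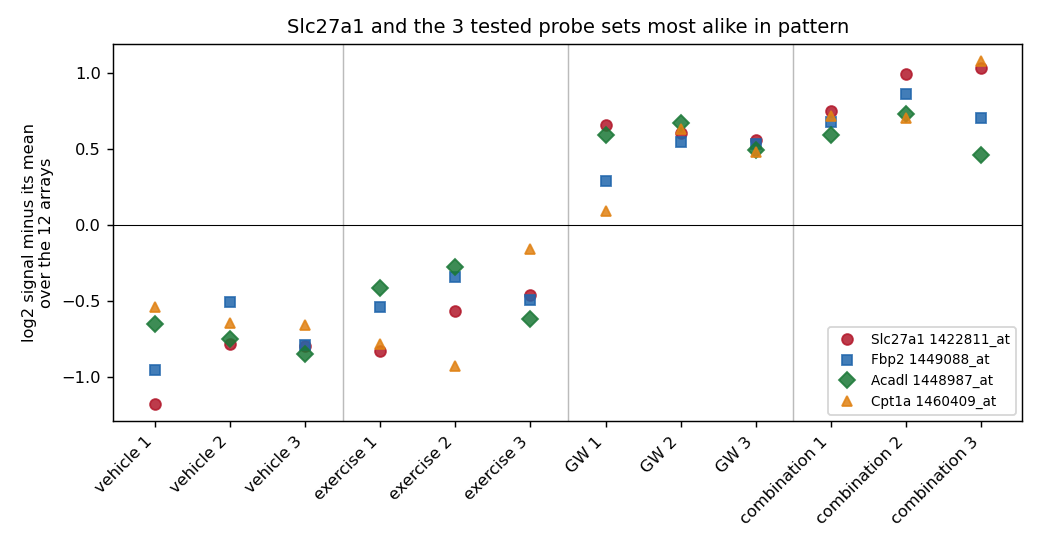
Log2 signal of Slc27a1, Fbp2, Acadl and Cpt1a on each of the 12 arrays, each minus its own mean over the arrays. All 4 lie below 0 on the 6 arrays without the drug and above 0 on the 6 arrays with it. Fbp2, Acadl and Cpt1a were picked for likeness to Slc27a1 over these arrays, so their split largely follows from the choice. GW array 1 is low for Cpt1a, whose signal there was 98.0.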

How the data were processed

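Quadriceps RNA pooled from 3 mice per array was measured on 12 arrays in 4 groups of 3. The deposited values are signal intensities that the authors made with MAS5, per the submitters' processing notes, with the version not given in the sources used here. They are on a linear scale and scaled per array: the mean without the lowest and highest 2% was about 200.1 on each array (200.098 at the highest). Depth is not defined for arrays, and their number limits the precision. Values were log2-transformed with no further scaling. After 64 control probe sets were left out, the upper 60% by mean log2 signal (13575 probe sets, mean signal above 28.4) were tested in R 4.3.3 with limma 3.58.1: 1 fit of all arrays, 4 groups, moderated variances with an intensity trend, two-sided tests, Benjamini-Hochberg adjustment over all probe sets tested, threshold 0.05. Gene symbols came from the array annotation, and all 17 member symbols matched RefSeq by gene identifier.

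Averaged effects are means of both drug or both training contrasts. Probe sets of a gene were compared by exact permutation. All member probe sets are named, other pathway genes where called, and for pattern the 3 most alike. Marker lists for fibre, fat, endothelial, macrophage and red blood cells were read as summed signals. The fat cell marker score used in the fit is not this sum but the mean log2 signal of the 6 fat cell markers with a probe set, Lep included. Of 6 slow fibre markers Myh7 and Tnnt1 lay below background on average, and the sums ran from 483 to 785. Macrophage sums ran from 579 to 1487 and red blood cell sums from 16.8 to 108. The members and lists were chosen with earlier results of these data known. The fit was tested on simulated data. Alternatives were other normalizations, a pseudocount of 10.5, other filters, other variance moderation, array weights, the groups compared alone, the replicate number as a block, a fat cell marker score, and each array left out. Whether arrays with the same number in the titles vary together was checked: of 18 pairs, 1 had a correlation of deviations above 0.1, so the numbers were not taken as pairs.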

Additional observations from a re-analysis of the deposited data

How the results depend on the processing

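Of 18 called member results, 5 kept their call in every alternative: Slc27a1 in sedentary mice, in the averaged drug effect and in the combination against vehicle, and Mlycd in sedentary mice and in the averaged drug effect. No called value changed sign. Of 102 uncalled results, 7 were called in some alternative. The number of member probe sets called moved by over 1.5 times as follows, apart from the smaller moves named. Without an intensity trend it was 2 in GW against vehicle (4 in the chosen setting), 1 in combination against exercise (2), 3 in the averaged drug effect (7) and 2 in combination against vehicle (5). With the fat cell marker score it was 1 in combination against exercise and 2 in combination against vehicle, with a smaller move to 5 in the averaged drug effect. With array weights it was 4 in combination against exercise and 1 in exercise against vehicle (0), with smaller moves to 5 in GW against vehicle and 7 in combination against vehicle. Cyclic loess, the pseudocount, no filter and the stricter filter gave 5 in GW against vehicle, and the stricter filter 3 in combination against exercise. With only the groups compared it was 2 in GW against vehicle. Without combination arrays 2 and 3, an alternative chosen after seeing the data that leaves 1 array in the group, it was 0 in combination against exercise, 2 in the averaged drug effect and 1 in combination against vehicle, with a smaller move to 3 in GW against vehicle. This alternative also has fewer arrays, and the cause of these moves was not tested. Leaving out each array gave 2 to 4 in GW against vehicle, 1 to 3 in combination against exercise, 6 to 7 in the averaged drug effect, 3 to 5 in combination against vehicle and 0 in the others. The count over all probe sets also moved, for example to 9 in the averaged drug effect without a trend (43). With the replicate block, the counts were 3 in GW against vehicle, where 1423109_s_at of Slc25a20 lost its call (adjusted p = 0.0752), 2 in combination against exercise, 7 in the averaged drug effect, 5 in combination against vehicle and 0 in the others. Arrays with the same number share only the number. Low signal limits 1447820_x_at of Cpt2 and 1421848_at of Slc22a5, whose intervals are wide.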
